A study of Mus musculus with 16 samples.

Results

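A set of 10 genes of methylation of histone H3 at lysine 9 (H3K9) was followed in mouse late 2-cell embryos. They were the writers, readers and erasers Setdb1, Ehmt1, Ehmt2, Suv39h2, Cbx1, Cbx3, Cbx5, Kdm4a and Kdm4b, and the corepressor gene Trim28. They were chosen by name and are a part of the pathway. All 10 were found among the 21887 protein-coding genes of chromosomes 1 to 19, X and Y in a RefSeq gene table of GRCm38. Zygotes had been injected with H2O (control) or with Hdac1 mutant mRNA (mutant), and embryos were collected 36 h after fertilization. Hdac1 encodes a histone deacetylase; the mutation is not named in the labels, and the control received no mRNA, so the effect of injected RNA as such and that of the mutant protein cannot be told apart. Acetylation of histone H3 at lysine 27 (H3K27ac) and trimethylation at lysine 4 (H3K4me3) were profiled by sequencing of DNA precipitated with native chromatin from small numbers of cells (ULI-NChIP-seq). Each combination of mark and condition had 2 immunoprecipitation libraries, 2 input libraries and a single peak list. The number of embryos per library is not given in the sources used here.

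Methylated H3K9 is the mark of heterochromatin, and it keeps repeats and retroelements silent. Methyltransferases place it, proteins with a chromodomain bind it and compact the chromatin, and demethylases of the Jumonji type remove it. After fertilization this system is rebuilt while the embryo starts its own transcription. H3K27ac marks active promoters and enhancers and is removed by deacetylases, whereas H3K4me3 marks promoters and in the early embryo can form broad domains.

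The lists gave positions only, so a gene was described by how much of it lay under peaks. End windows, made of the 2 kb before and the 2 kb after either gene end, summed to 8 kb for each of the 10 genes. The lists held 77349 (control) and 122487 (mutant) H3K27ac peaks and 86798 and 85780 H3K4me3 peaks on the chromosomes used, which covered 251.6 and 245.9 Mb and 257.0 and 279.4 Mb. With 1 list per mark and condition no value has a replicate error, no test was possible, and sequencing depth is unknown. Differences below are differences between lists. A list also does not tell a mark present in fewer cells from a weaker mark in every cell. As a check of the stage, 9 genes known from the 2-cell stage were matched, and H3K27ac lay at the ends of all 9 in each condition, while 8 (control) and 7 (mutant) had H3K4me3. The medians of their coverage were lower in mutant embryos, with 63.1% and 31.9% for H3K27ac and 62.3% and 37.2% for H3K4me3, and H3K27ac lay over 6 and 1 of the 7 starts known. H3K4me3 lay over 2 of these starts in control and 4 in mutant embryos, and its coverage was higher in mutant embryos at Tdpoz4 (62.3% and 92.5%) and Zscan4c (0% and 12.3%). Of 10 genes of cumulus and granulosa cells, which can adhere to embryos, 3 and 6 had H3K27ac and 7 and 9 had H3K4me3. Their median coverage was 0% and 3.03% for H3K27ac and 23.3% and 12.9% for H3K4me3. H3K27ac covered 0% of the ends of Has2, Inha, Ptx3 and Inhba in control and 36.9%, 25.6%, 11.2% and 2.74% in mutant embryos, while Amh had 49.6% and 46.6%. Ptgs2 had 7.24% and 3.33%, Tnfaip6 6.3% and 0%, and Foxl2, Cyp19a1 and Fshr had 0% in both. The part of such cells, or of a difference in stage, in the results was not tested.

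All 10 genes carried both marks at their ends in control embryos. In the mutant lists 9 of 10 had H3K27ac there, the exception being Suv39h2, and all 10 had H3K4me3. H3K27ac covered 61.6 kb of the summed end windows in control and 38.1 kb in mutant embryos, or 77.0% and 47.6%. The same shares over all protein-coding genes were 26.3% and 22.6%. H3K4me3 covered 65.0% of the windows of the 10 genes in control embryos and 56.2% in mutant ones, and 37.9% and 39.0% of those of all genes. The heterochromatin genes thus started from more coverage of both marks than the average gene and had less of both in the mutant lists, most of it in H3K27ac.

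**Figure D1:**
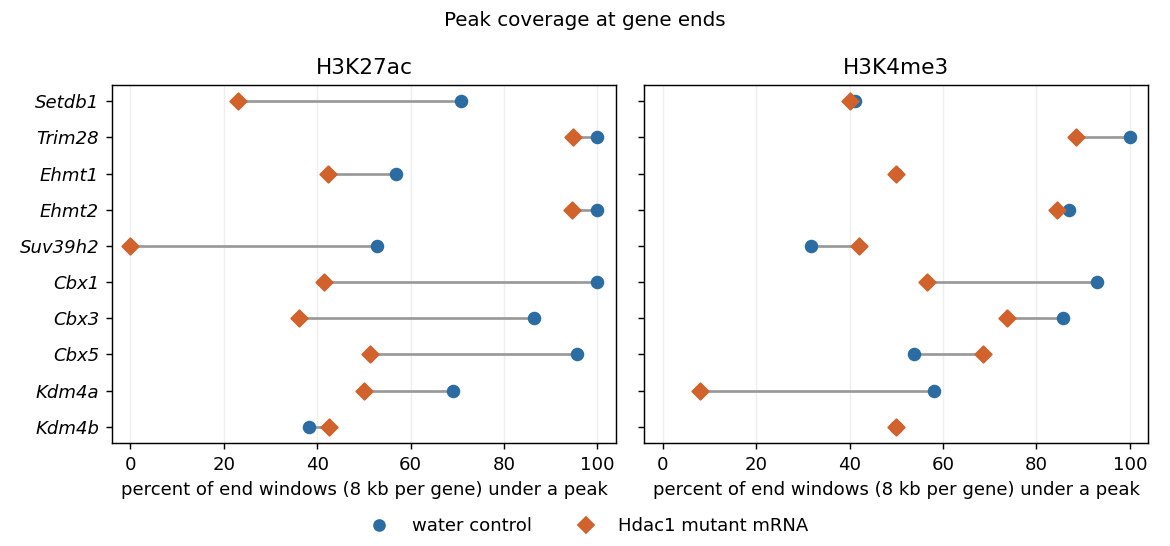
Percent of the end windows (8 kb per gene) under a peak for each gene, with H3K27ac on the left and H3K4me3 on the right; circles are water-injected and diamonds mutant embryos, 1 list each. H3K27ac was lower in the mutant list at 9 of 10 genes, and at 78.5% of all protein-coding genes with at least 50% covered in control. Kdm4a had the largest difference in H3K4me3.

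H3K27ac coverage of the end windows was lower in mutant embryos at 9 of the 10 genes, with a median difference of -31.7 percentage points and a range from -58.6 to 4.24. It was also lower at 52.6% of protein-coding genes with a peak in either list and at 67.6% of those with a control peak. Among genes with at least 50% covered in control, the class of 9 of the 10, the share was 78.5%. With windows of 1 kb, 6 of the 10 genes were lower, as Trim28, Ehmt1, Ehmt2 and Kdm4b then had equal values. Trim28 was also equal with peaks less than 1 kb apart joined. At least 2-fold lower coverage was found at 4 genes, Setdb1, Suv39h2, Cbx1 and Cbx3, and at least 2-fold higher coverage at 0. Among the 15423 protein-coding genes with an H3K27ac peak in either list, 32.2% were lower and 31.2% higher by the same rule. The share of lower genes was near that background. The count of 0 higher genes carries no information, since 9 of the 10 had over 50% of the windows covered in control and could not double. Over all genes with a control peak the median difference was -9.53 points, but the 10 genes started high. Among the 5665 genes with at least 50% of the windows covered in control the median was -25.4 points, and for the 9 heterochromatin genes in that class it was -44.3 points. With genes chosen by at least 50% coverage in the mutant list instead, the medians were 5.73 points over 4114 genes and -12.3 points over 4 heterochromatin genes.

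H3K4me3 differed less. Its coverage was lower in mutant embryos at 6, higher at 2 and equal at 2, with a median difference of -1.79 points and a range from -50.1 to 14.8. Of all genes with a peak in either list, 41.0% were lower. Among genes with at least 50% covered in control 51.35% were lower, with a median of -0.875 points, against -7.06 points for 8 of the 10. With peaks less than 1 kb apart joined, Setdb1 and Trim28 became equal. With windows of 5 kb Setdb1, Ehmt1 and Ehmt2 were higher and Suv39h2 and Kdm4b lower. Only Kdm4a, with 58.0% in control and 7.91% in mutant embryos, was at least 2-fold lower and 0 genes were at least 2-fold higher, compared with 13.3% and 13.2% of the 17412 protein-coding genes with an H3K4me3 peak. Here too 6 of the 10 had over 50% covered in control and 2 had exactly 50%, so the count of higher genes was limited from the outset. A control H3K4me3 peak at the gene ends with none in the mutant list occurred at 0 of the 10 genes and at 8.94% of 16351 genes. With windows of 1 kb, or with the wider 50% of each list, 9 of the 10 had a mutant peak, the exception being Kdm4a, whose only mutant peak in the windows lay at its 3′ end. For H3K27ac this occurred at 1 of the 10 genes and at 22.7% of 12004 genes.

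**Figure D2:**
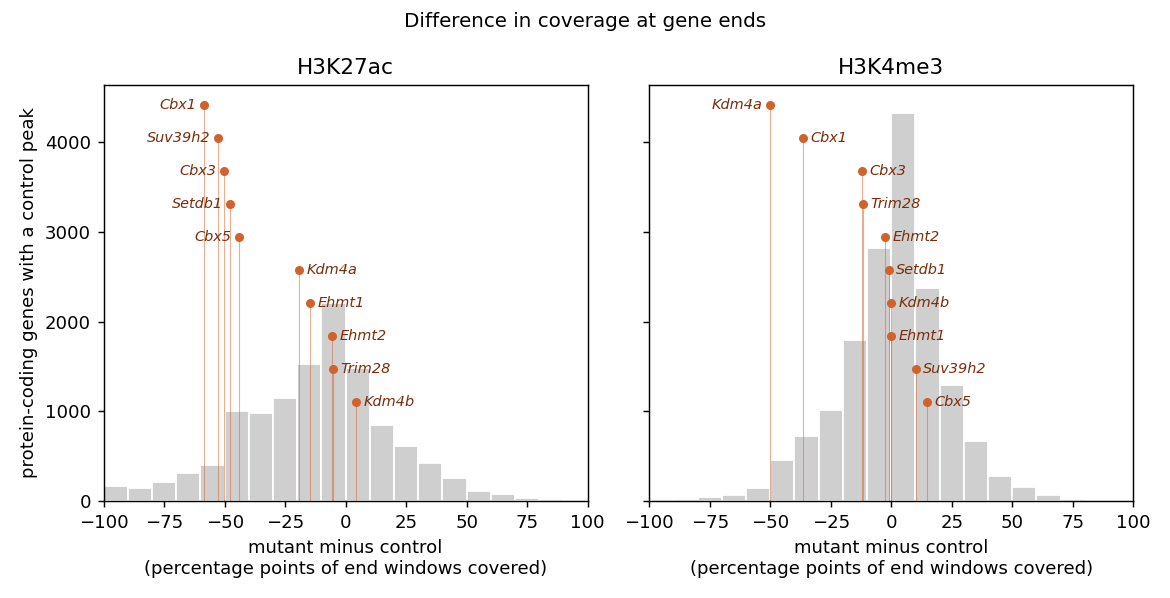
Difference in the percent of end windows covered (mutant minus control), with grey bars counting protein-coding genes with a control peak in steps of 10 points; points mark the 10 heterochromatin genes and their height carries no value. In H3K27ac, 5 of the genes lay between -58.6 and -44.3 points, while 8 of the H3K4me3 differences lay between -12.0 and 14.8 points.

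The histone methyltransferases came first. Setdb1 (gene ID 84505, chromosome 3, 95323525 to 95357202, minus strand), which trimethylates H3K9 at retroelements, had 70.8% of its end windows under H3K27ac in control and 23.1% in mutant embryos, a 3.07-fold difference. Almost all of it lay at the 3′ end, with 88.9% covered in control and 0% in mutant embryos. That end is shared with Cers2, a ceramide synthase gene, whose own end lies 74 bp from it. At the 5′ end coverage was 52.7% and 46.1%. H3K4me3 was found at the 5′ end alone and was nearly equal, with 82.3% and 80.2%. The start of Setdb1 lay between H3K27ac peaks in both lists, the nearest being 298 bp (control) and 315 bp (mutant) downstream. It lay under H3K4me3 in both.

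Suv39h2 (gene ID 64707, chromosome 2, 3455815 to 3474986, minus strand), a methyltransferase of pericentric heterochromatin, differed in H3K27ac and not in the presence of H3K4me3. Its end windows were covered by H3K27ac to 52.7% in control and 0% in mutant embryos. The control peak over the start was 3891 bp wide and reached from 2703 bp upstream to 1187 bp downstream. In the mutant list the nearest H3K27ac peak lay 3524 bp upstream of the start. H3K4me3 covered 2545 bp of the windows in the control list and 3361 bp in the mutant list, and its peak over the start measured 2032 bp and 3361 bp. Thus H3K27ac was absent from the start of Suv39h2 in the mutant list while H3K4me3 was present in both; which list had the wider H3K4me3 peak changed when peaks less than 1 kb apart were joined. Dclre1c, a DNA repair nuclease gene, overlaps Suv39h2 and has an end 775 bp from the same end.

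Ehmt1 (gene ID 77683, chromosome 2, 24790769 to 24919643, minus strand) and Ehmt2 (gene ID 110147, chromosome 17, 34898463 to 34914073, plus strand) encode GLP and G9a, partners that methylate H3K9 in euchromatin. Both had their starts under both marks in all lists. At Ehmt1 the 5′ end was covered to 100% by H3K27ac in control and to 84.7% in mutant embryos, and to 100% by H3K4me3 in both. At Ehmt2 the end windows were covered to 100% and 94.5% by H3K27ac and to 86.9% and 84.4% by H3K4me3. At Ehmt1 the width of single peaks differed more than coverage did. In control embryos a single H3K27ac peak of 75326 bp ran over its 5′ part and over Arrdc1, Zmynd19 and Dph7, and it ranked 11 by width among all control H3K27ac peaks. The mutant peak over the start measured 8653 bp. With peaks less than 1 kb apart joined, the width difference (mutant minus control) was -12948 bp instead of -66673 bp and no longer reached 2-fold. The gene body held 7 peaks in control and 13 in mutant embryos, and they covered 44.6% and 50.6% of it.

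Trim28 (gene ID 21849, chromosome 7, 13024152 to 13031032, plus strand) encodes the corepressor that links KRAB zinc finger proteins to Setdb1 and HP1. Its end windows were covered to 100% by both marks in control embryos. The mutant lists gave 94.7% for H3K27ac and 88.4% for H3K4me3. As at Ehmt1, single peaks differed more than coverage did. The control H3K27ac peak over Trim28 measured 52398 bp and spanned 7 protein-coding genes, from Zfp446 to Ube2m, whereas the widest mutant peak at the gene measured 8913 bp. Gm31649 overlaps the start of Trim28, and Chmp2a has an end 974 bp from its 3′ end, so peaks at these ends cannot be assigned to Trim28 alone.

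Cbx1, Cbx3 and Cbx5 encode the 3 HP1 proteins, HP1 beta, gamma and alpha, which bind methylated H3K9 through a chromodomain. All 3 genes had their start under H3K27ac in control embryos and not in mutant embryos, and all 3 had their start under H3K4me3 in both. At Cbx1 (gene ID 12412, chromosome 11, 96788680 to 96808982, plus strand) H3K27ac covered 100% of the 5′ end in control and 0% in mutant embryos. The nearest mutant peak lay 6231 bp downstream of the start. H3K4me3 covered 86.2% and 94.6% of the same window. At the 3′ end H3K4me3 was lower in mutant embryos, with 100% and 18.6%, and over the summed windows it covered 93.1% and 56.6%. H3K27ac at the 3′ end was 100% and 82.8%.

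Cbx3 (gene ID 12417, chromosome 6, 51470154 to 51483704, plus strand) showed the same arrangement. H3K27ac covered 100% of the 5′ end in control and 0% in mutant embryos, and the nearest mutant peak lay 4701 bp downstream of the start. H3K4me3 covered 100% of the window in both lists. At the 3′ end of Cbx3 the H3K27ac values were nearly equal, with 72.8% and 72.1%, so the difference between the ends lay at the start. Hnrnpa2b1, which encodes an RNA-binding protein, has an end 106 bp from Cbx3, and the control H3K27ac peak of 20993 bp lay over both genes.

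At Cbx5 (gene ID 12419, chromosome 15, 103191546 to 103239904, minus strand) H3K27ac covered 100% of the 5′ end in control and 2.65% in mutant embryos. The nearest mutant peak ended 1947 bp upstream of the start. H3K4me3 covered 100% in both. At the 3′ end H3K27ac went the other way, with 91.2% in control and 100% in mutant embryos, so the summed windows differed by less than 2-fold (95.6% and 51.3%). Hnrnpa1, another RNA-binding protein gene, has an end 39 bp from the 5′ end of Cbx5. A control H3K4me3 peak of 54438 bp lay over Cbx5, Hnrnpa1, Nfe2 and Copz1 and ranked 15 by width in its list, and the mutant peak over the start measured 19492 bp.

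Kdm4a and Kdm4b encode demethylases that remove methyl groups from trimethylated H3K9. Kdm4a (gene ID 230674, chromosome 4, 118136957 to 118180090, minus strand) was the only gene whose start lay under H3K4me3 in control and not in mutant embryos. A control H3K4me3 peak of 9370 bp reached from 3346 bp upstream of its start to 6023 bp downstream. The mutant list had no H3K4me3 peak at the 5′ end, which was covered to 100% in control and 0% in mutant embryos, and the nearest one lay 9441 bp downstream of the start. H3K27ac covered 100% of the same window in both lists, with peaks of 8232 bp and 6624 bp over the start. Kdm4a thus had H3K27ac without H3K4me3 at its start in the mutant lists, the reverse of Suv39h2 and the HP1 genes.

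Kdm4b (gene ID 193796, chromosome 17, 56325970 to 56403774) differed little at its ends in 2 kb windows, by 4.24 points in H3K27ac and 0 in H3K4me3. With peaks less than 1 kb apart joined the H3K27ac difference was 11.8 points, and with windows of 5 kb it was 12.8 points. Its start was not in the promoter table, so its ends are named by coordinate. The lower-coordinate end was covered by H3K27ac to 76.5% in control and 84.9% in mutant embryos and by H3K4me3 to 100% in both. The higher-coordinate end had neither mark in any list. The widest peaks were wider in mutant embryos, with 7845 and 15360 bp for H3K27ac and 19237 and 22914 bp for H3K4me3. With peaks less than 1 kb apart joined, the H3K27ac widths differed by 427 bp instead of 7515 bp. All 4 of these peaks also lay over Uhrf1, which encodes a reader of methylated H3K9 and DNA.

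**Figure D3:**
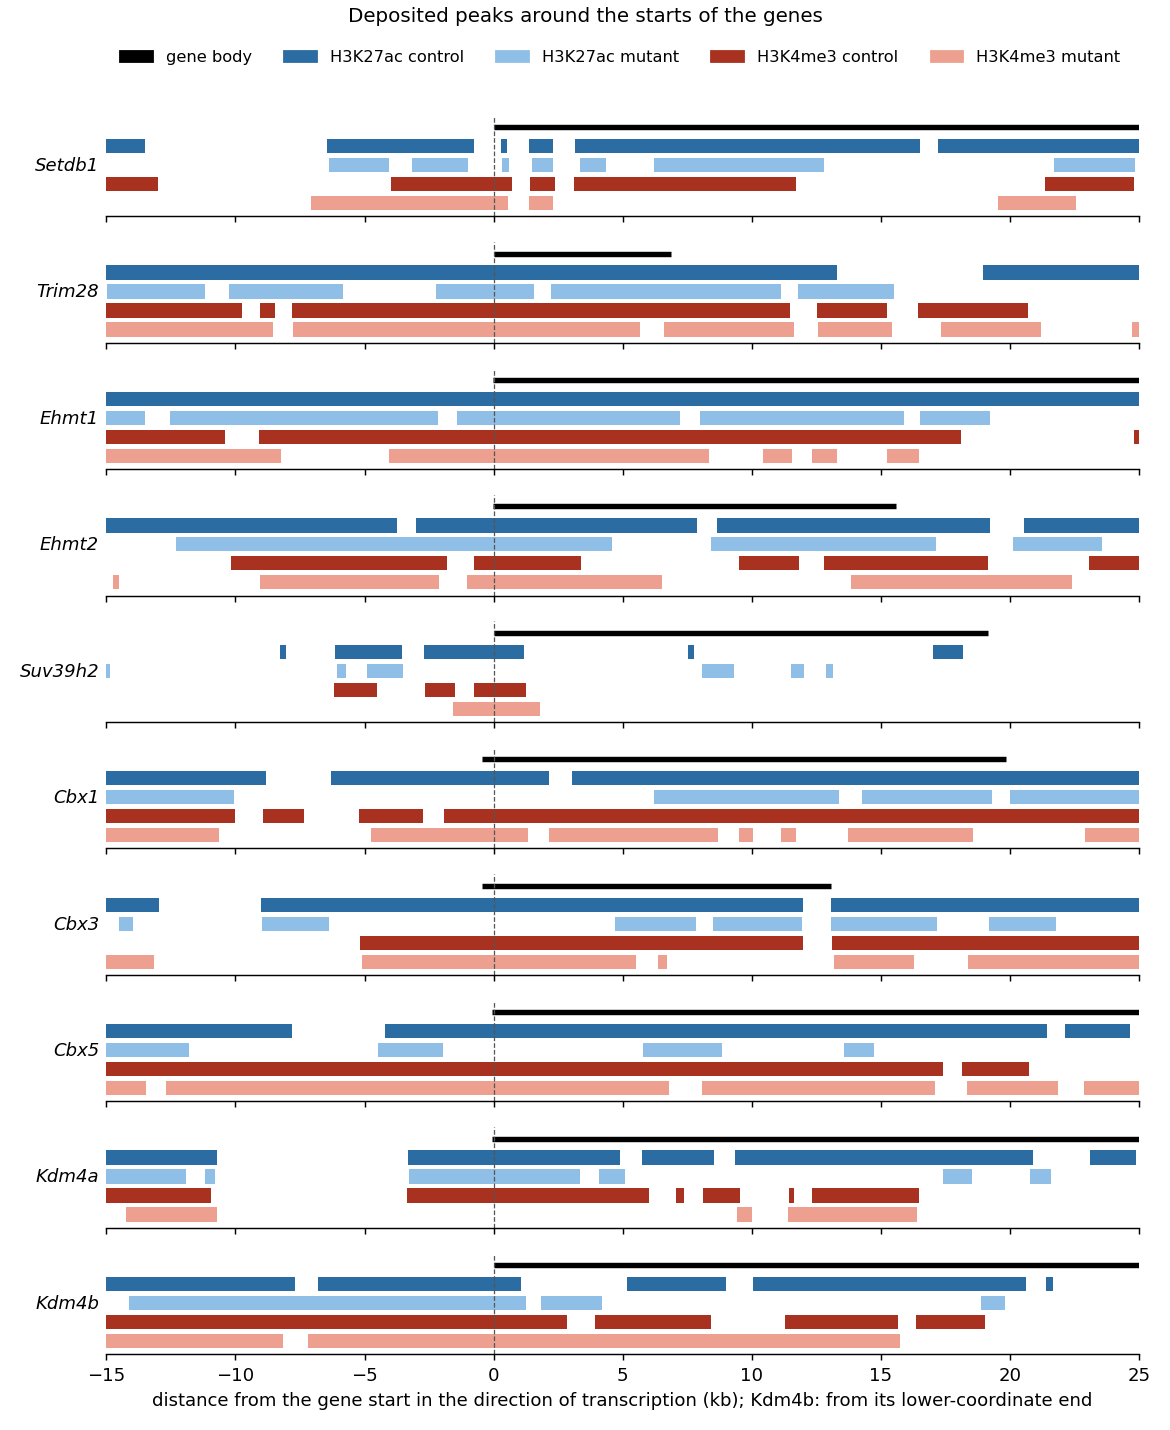
Deposited peaks from 15 kb before to 25 kb after the start of each gene, in the direction of transcription (Kdm4b from its lower-coordinate end); black lines are gene bodies and the 4 coloured rows are the lists (dark for control, light for mutant). No mutant H3K27ac peak lies over the starts of Suv39h2, Cbx1, Cbx3 and Cbx5, and no mutant H3K4me3 peak lies over the start of Kdm4a.

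The starts were then compared with those of all protein-coding genes, of which 17492 had a start in the promoter table, as had 9 of the 10 genes. H3K27ac lay over 8 of the 9 starts in control and over 4 in mutant embryos, so 4 of 8 were without it in the mutant list. The background was 50% of 6161 genes, and the share was equal to it. For H3K4me3 1 of 9 starts was without a peak in mutant embryos, against 11.7% of 11589 genes. Of the 8 starts under both marks in control, 3 kept both (Trim28, Ehmt1 and Ehmt2) and 4 had H3K4me3 alone (Suv39h2, Cbx1, Cbx3 and Cbx5). Over all 5864 genes with such starts, 47.6% kept both marks and 44.7% had H3K4me3 alone. Kdm4a was the 1 gene with H3K27ac alone, a state reached by 3.15% of those genes. Starts with H3K27ac in the mutant list and not in control were also frequent, 1789 of 4868 over all genes and 0 of 4 among the heterochromatin genes. Among starts under both marks in control, the state of Kdm4a was the rarest of the 4.

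Upstream sequences are shown for 4 genes that represent these outcomes, from RefSeq, GRCm38.p6, minus strand, read 5′ to 3′ toward the start, with CpG dinucleotides in capitals. CpG-rich promoters are the usual sites of H3K4me3 in mammals, which is why these letters are marked. Bases that lie within an annotated gene are left out. Kdm4a, where H3K4me3 was absent in the mutant list, is shown at chr4:118180091-118180293, Suv39h2, where H3K27ac was absent, at chr2:3474987-3475236, Setdb1, whose start lay between H3K27ac peaks, at chr3:95357203-95357452, and Ehmt1, where both marks were present in both conditions, at chr2:24919644-24919859.
Kdm4a: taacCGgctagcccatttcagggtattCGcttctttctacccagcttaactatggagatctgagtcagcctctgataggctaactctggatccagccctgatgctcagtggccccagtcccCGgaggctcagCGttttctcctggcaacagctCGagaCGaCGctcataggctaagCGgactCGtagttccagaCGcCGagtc
Suv39h2: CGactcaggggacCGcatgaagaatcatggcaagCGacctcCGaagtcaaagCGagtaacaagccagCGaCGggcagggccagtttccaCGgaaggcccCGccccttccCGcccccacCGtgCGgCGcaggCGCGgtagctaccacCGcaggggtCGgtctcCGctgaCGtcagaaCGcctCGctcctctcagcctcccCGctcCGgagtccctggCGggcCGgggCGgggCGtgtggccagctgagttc
Setdb1: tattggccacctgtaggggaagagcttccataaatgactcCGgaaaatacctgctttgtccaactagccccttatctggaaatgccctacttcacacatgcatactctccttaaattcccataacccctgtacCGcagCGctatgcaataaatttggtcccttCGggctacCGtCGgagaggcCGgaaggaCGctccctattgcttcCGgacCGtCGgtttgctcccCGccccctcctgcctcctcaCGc
Ehmt1: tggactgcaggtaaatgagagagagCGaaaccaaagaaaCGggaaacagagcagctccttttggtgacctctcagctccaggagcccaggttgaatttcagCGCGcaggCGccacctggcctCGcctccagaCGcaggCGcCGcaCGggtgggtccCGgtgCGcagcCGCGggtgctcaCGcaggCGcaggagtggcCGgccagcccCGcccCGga
The stretches hold 11 CpG in 203 bases (Kdm4a), 27 in 250 (Suv39h2), 13 in 250 (Setdb1) and 19 in 216 (Ehmt1). In the full 250 bases before the start the counts ranged from 12 at Kdm4a to 29 at Cbx3 over the 9 genes, and the median of all 17492 promoters was 10. The GC box, searched as GGGCGG on both strands, was found in 8 of the 9 windows and in 42.7% of all promoters. Kdm4a was the gene without it; a match or its absence describes the letters of this window and nothing more.

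The width of single peaks gave a second view of these genes. The widest H3K27ac peak at the gene ends was narrower in mutant embryos at 7 and wider at 2 of the 9 genes with a peak in both lists, with a median ratio of 0.303. Over the 9277 protein-coding genes with a peak in both lists, 67.2% were narrower and the median ratio was 0.619. The peak was at least 2-fold narrower at 5 of the 9 heterochromatin genes, against 41.5% of the 9277. The smallest ratios were 0.115 at Ehmt1 and 0.17 at Trim28, and the wider ones were Ehmt2 (10909 and 16875 bp) and Kdm4b. Widths depend on where a list splits a stretch of signal: with peaks less than 1 kb apart joined, 5 genes were again at least 2-fold narrower, but Ehmt1 and Cbx1 were replaced by Ehmt2 and Kdm4a, and the median ratio was 0.435. Genes chosen for a wide control peak are narrower in the other list partly by that choice, so both choices are given. Of the 4366 genes with a control H3K27ac peak over 10 kb, 63.1% were at least 2-fold narrower in mutant embryos, as were 4 of the 6 heterochromatin genes so chosen. Of the 2043 genes with a mutant peak over 10 kb, 18.1% were at least 2-fold narrower in mutant embryos, as were 0 of the 3 heterochromatin genes, Ehmt2, Cbx5 and Kdm4b. At Cbx5 the 2 widest peaks lay at different ends, the control one (25628 bp) at the 5′ end and the mutant one (17088 bp) at the 3′ end. The mutant peak at its 5′ end measured 2522 bp.

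In H3K4me3 the widest peak was narrower in mutant embryos at 6 of the 10 genes and wider at 4. Of all genes with a peak in both lists, 37.4% were narrower. The 10 genes started from wider control peaks, with a median of 18200 bp against 5281 bp over all genes with a control peak. The median ratio of mutant to control width was 0.658 for the 10 genes and 1.22 for all 14889 protein-coding genes with a peak in both lists. At least 2-fold narrower peaks were found at 4 of 10, Ehmt1 (27186 and 12411 bp), Cbx1 (30166 and 6076 bp), Cbx5 (54438 and 19492 bp) and Kdm4a (9370 and 1230 bp), against 10.5% of all genes. At Kdm4a the mutant peak lay at the 3′ end, over St3gal3. Among the 3965 genes with a control H3K4me3 peak over 10 kb the median ratio was 0.808, and for the 6 heterochromatin genes so chosen it was 0.537. Of these 3965 genes 65.7% were narrower and 23.1% at least 2-fold narrower, as were 5 and 3 of the 6. Among the 5250 genes with a mutant peak over 10 kb the median ratio was 1.49, and for the 5 heterochromatin genes it was 0.618. Setdb1 (4677 and 7628 bp), Ehmt2, Suv39h2 and Kdm4b had the wider peak in mutant embryos. But with peaks less than 1 kb apart joined this was so for Trim28 and Kdm4b, and 5 of the 10 genes were at least 2-fold narrower. With gaps under 750 bp joined and peaks under 200 bp left out, 7 were at least 2-fold narrower, with Setdb1, Trim28 and Cbx3 added.

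**Figure D4:**
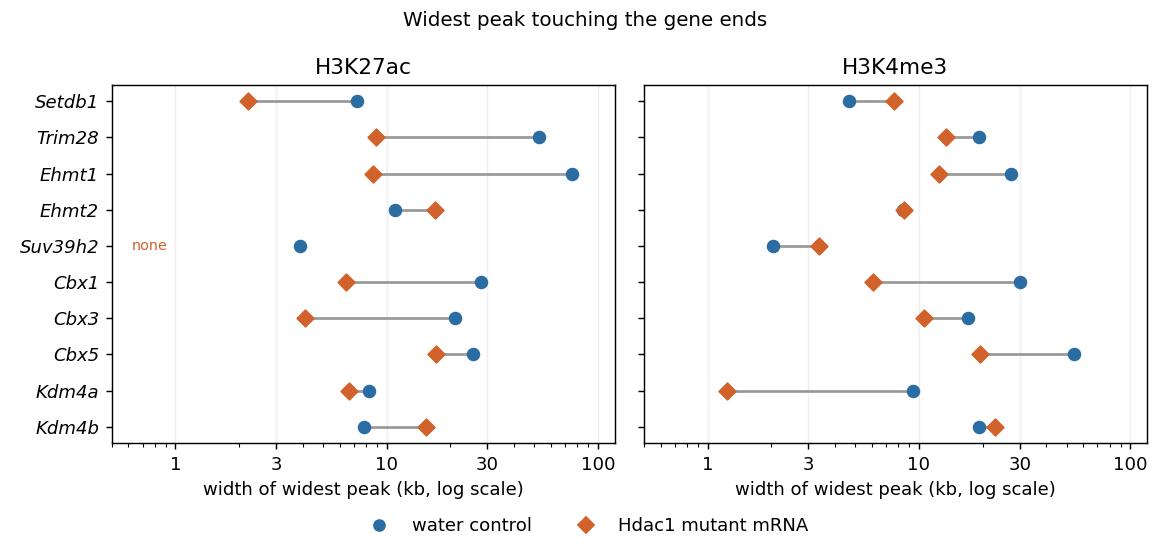
Width of the widest peak touching the gene ends in kb, on a log scale, for each gene, mark and condition (circles control, diamonds mutant, 1 list each); "none" marks Suv39h2 in the mutant H3K27ac list. The widest control peaks, 75326 bp of H3K27ac at Ehmt1 and 54438 bp of H3K4me3 at Cbx5, had mutant counterparts of 8653 and 19492 bp; with peaks less than 1 kb apart joined, the Ehmt1 difference was below 2-fold.

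Gene bodies, from start to end of each gene, gave lower values in the mutant lists for both marks. H3K27ac covered 55.0% of the 407.4 kb of the 10 gene bodies in control and 36.5% in mutant embryos, and H3K4me3 covered 39.4% and 28.5%. Over all protein-coding genes the shares were 13.9% and 12.5% for H3K27ac and 12.5% and 13.3% for H3K4me3. Since the 10 genes started higher, bodies with at least 50% H3K27ac coverage in control were also compared: the median difference was -26.1 points over 4478 genes and -38.1 points over 6 of the 10. With bodies chosen by the mutant list it was 0.175 points over 3139 genes and -14.7 points over 4 of the 10. The number of H3K27ac peaks in the 10 bodies was 36 in control and 47 in mutant embryos, so less sequence was divided among more peaks. The whole lists had the same property, with 77349 and 122487 peaks over 251.6 and 245.9 Mb. H3K4me3 peaks in the 10 bodies numbered 36 and 33, beside 86798 and 85780 in the whole lists.

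Body coverage by H3K27ac was at least 2-fold lower at 3 of the 10 genes and at least 2-fold higher at 0, against backgrounds of 27.1% and 29.8%. With 6 of the 10 bodies over 50% covered in control, few could double. The 3 were Cbx5 (86.4% and 27.6%), Kdm4a (48.9% and 21.3%) and Kdm4b (22.6% and 7.09%), none of which passed the same limit at its ends. At Kdm4b H3K27ac was thus slightly higher at the marked end and 3.19-fold lower over the body in mutant embryos. Ehmt1 was the only gene with higher H3K27ac body coverage in mutant embryos. For H3K4me3 2 genes were at least 2-fold lower, Setdb1 (40.8% and 13.5%) and Kdm4a (28.8% and 13.0%), and 0 higher, against 15.4% and 20.1% of all genes; 5 of the bodies were over 50% covered in control. At Cbx3 the H3K4me3 body coverage was 91.8% in control and 46.5% in mutant embryos, just short of the limit.

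**Figure D5:**
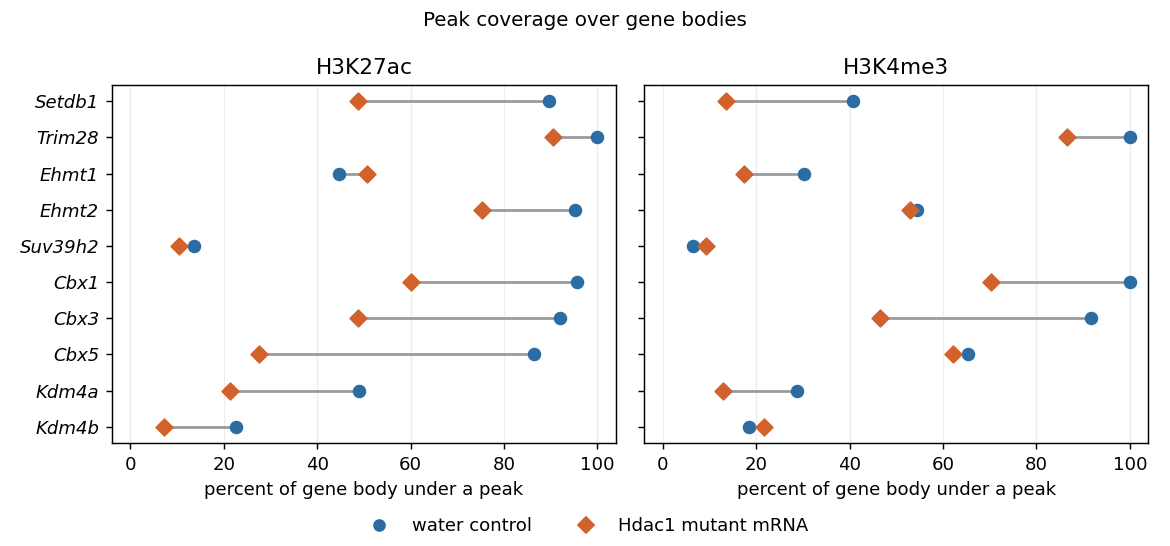
Percent of the gene body under a peak for each gene, with H3K27ac on the left and H3K4me3 on the right (circles control, diamonds mutant, 1 list each). Among H3K27ac values, Cbx5 differed most, with 86.4% and 27.6%, and Ehmt1 alone was higher in the mutant list.

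The sequence under both marks at once was compared at the gene ends. It amounted to 49490 bp of the 80000 bp of end windows in control embryos and to 25780 bp in mutant ones, a ratio of 0.521. Over all protein-coding genes the ratio was 0.775, from a lower control share of 19.9% against 61.9% for the 10 genes. Shared coverage was 0 in mutant embryos at Suv39h2 and Kdm4a, with 2470 and 4643 bp in control. At Suv39h2 the mutant lists had no H3K27ac in the windows. At Kdm4a they had no H3K4me3 at the 5′ end and no H3K27ac at the 3′ end. Cbx1 had 7447 and 743 bp (control and mutant) and Cbx3 6848 and 1894 bp. Kdm4b was the only gene with more shared sequence in mutant embryos (3058 and 3397 bp). The remaining genes had mutant to control ratios from 0.398 at Cbx5 to 0.908 at Ehmt2.

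Other genes of the pathway, 43 in number, were described in the same way. They cover further writers, partners of the writers, silencing factors of the HUSH complex and others, erasers, histone chaperones and proteins of the nuclear periphery. For H3K27ac, 16 were at least 2-fold lower at the gene ends and 6 at least 2-fold higher in mutant embryos, of 40 with a peak in either list, which sets them beside the backgrounds of 32.2% and 31.2% given above. The median control coverage of the 43 was 50%, and genes above 50% could not double, which limited the count of higher genes. The silencing factors accounted for 7 of the 16, from 11 genes, and their median difference was -31.7 points; none was at least 2-fold higher, but 7 of the 11 had over 50% covered in control and could not double. There were 1 lower and 1 higher of 4 writers with H3K27ac in either list, 1 and 1 of 5 partners, 2 and 1 of 6 chaperones and 1 and 1 of 5 genes of the periphery. Over all members of these groups the median differences were 0 (5 writers), -8.95 (7 partners), -16.2 (chaperones) and 6.9 points (periphery). Smchd1, which acts in X inactivation, had 100% of its windows covered in control and 27.1% in mutant embryos. The HUSH subunit gene Pphln1 had 57.7% and 0%, and Morc2a, an ATPase gene of the same pathway, 77.4% and 7.7%. Resf1, a partner of Setdb1 in retroelement silencing, had 100% and 48.7%.

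Of the 9 further erasers, 4 were at least 2-fold lower and 2 at least 2-fold higher in H3K27ac, with a median difference of -28.1 points. Kdm3b, a demethylase of mono- and dimethylated H3K9, had 84.3% in control and 5.66% in mutant embryos, while its relative Jmjd1c had 4.21% and 79.3%. In H3K4me3 the pathway genes differed in both directions, with 16 lower and 23 higher in mutant embryos and a range from -40.9 to 49.4 points. The split was near that of all 17412 genes with a peak in either list, with 7143 lower and 9114 higher. At the ends 2 of 42 pathway genes were at least 2-fold lower and 0 higher, against the 13.3% and 13.2% of all genes. The median control coverage of the 43 was 50%, and genes above 50% could not double. The count of higher genes was thus limited from the outset. The 2 lower genes were Atf7ip, a stabilizing partner of Setdb1, with 40.9% in control and 0% in mutant embryos, and Cdyl, a chromodomain protein gene, with 0.637% and 0%, or 51 bp and none. The median H3K4me3 difference of the 43 genes was 2.76 points, compared with -16.3 points for H3K27ac. Over all genes with a peak in either list these medians were 1.2 and -2.18 points, and over those with a control peak 0 and -9.53 points. Over the gene body 8 of the 43 were at least 2-fold lower in H3K4me3 and 5 at least 2-fold higher, beside backgrounds of 15.4% and 20.1%.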

How the data were processed

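The authors deposited 1 peak list per mark and condition, named for a group and not for 1 of its 2 immunoprecipitation libraries; whether reads were pooled is not given in the sources used here. The deposited lists hold chromosome, start and end only, so other values such as score, height or depth were not analysed here. The submitters' processing notes name CASAVA, Trimmomatic, Bowtie2, SAMtools, Picard, MACS2 and deepTools and the builds mm10 and GRCm38, with no settings.

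Positions were read as 0-based starts and printed 1-based. Python 3.11.15, numpy 2.4.6 and pandas 2.3.3 computed peaks, covered bases and widest peak for all 21887 protein-coding genes of the GRCm38.p6 table, with a least overlap of 1 bp. A call means a difference of at least 2-fold in covered bases, counting 0 as past it. Starts are the most upstream ones of the RefSeq promoter table. The counting was checked on simulated data. All pathway genes were matched, as were 9 of 10 stage markers. Genes named are the 10 members, genes ending in their windows, genes under the wide peaks described, and for each mark up to 6 pathway genes past the limit with the largest differences. Members and lists were chosen with earlier results of these data known. The choice of genes by the mutant list was added after values had been seen.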

Additional observations from a re-analysis of the deposited data

How the results depend on the processing

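No paired analysis was possible because a single peak list stands for both libraries of a group, and for the same reason no replicate could be left out. Values were recomputed with windows of 1 and 5 kb, with neighbouring peaks joined at gaps under 1 kb, with common limits on gap and width, with the wider 50% of each list and with lists of equal length; counts also with at least 500 bp covered and at 1.5-fold and 3-fold. Of the counts, medians and summed ratios, 116 recomputed values stayed within 1.5 times the reported one, 6 did not and 0 reversed. Counts have no sign, so they could not reverse. The counts of higher genes were limited from the outset and were 0 in every setting. A count could also stay equal while its genes changed, as it did for narrower H3K27ac peaks with gaps under 1 kb joined. The tally is therefore a weak check. The number of genes lower in H3K4me3 at the ends was 2 (Cbx1 and Kdm4a) with windows of 1 kb and at 1.5-fold. At 3-fold the number lower in H3K27ac was 2 (Setdb1 and Suv39h2). Under common limits the median width ratio was 0.484 for H3K27ac, and 7 genes had an at least 2-fold narrower H3K4me3 peak. With the wider 50% of peaks 4 genes (Setdb1, Ehmt1, Cbx3 and Kdm4a) were lower in H3K4me3 over the body. The cause of these shifts was not tested. With windows of 5 kb Suv39h2 had a mutant H3K27ac peak in reach and Setdb1 was not past the limit. The ratio of sequence under both marks ranged from 0.516 to 0.566. The same starts lay under a peak in the 4 alternatives that alter the lists, chosen after the data had been seen. Single genes kept the sign of their end coverage difference in 54 of 60 recomputed values for H3K27ac and 52 of 60 for H3K4me3, and that of the widest peak in 56 of 60 and 54 of 60. The lists give no score, so peak strength was not measured.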
